A study of Mus musculus with 56 samples.

Results

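The response of skeletal muscle to a virus that delivers a titin-cutting protease was compared between a later and an earlier day. Taken against saline, this response does not separate the effect of cutting titin from that of the virus and the protease. The samples were whole tibialis anterior, the muscle along the shin, of mice homozygous for a titin mechanical knock-out (mKO) allele. In this model titin carries a recognition site for TEV protease, an enzyme from a plant virus, so that delivery of the protease cuts titin inside the fibre. Muscles had been injected with an adeno-associated virus (AAV) that encodes TEV protease fused to GFP, or with saline, and were taken 21 or 7 days post injection (dpi). The homozygous groups held 4 AAV and 4 saline libraries at 21 dpi and 5 AAV and 4 saline libraries at 7 dpi, which is 17 of the 56 libraries of the series. Wild-type muscles, whose titin lacks the site, had received the same virus (4 libraries at 21 dpi and 4 at 7 dpi) or saline (4 libraries at 21 dpi and 3 at 7 dpi). For each of the 13017 genes tested, out of 14871 in the table, the response of a day was the mean log2(value + 1) of the AAV muscles minus that of the saline muscles. The shift was the response at 21 dpi minus the response at 7 dpi, so that a positive shift means a more positive response at 21 dpi. Values are normalised read counts on a per-million scale. The age of the mice and the promoter of the protease are not given in the sources used here. Nor is whether the libraries of a group came from separate mice, so p-values measure the spread between libraries, part of which may be technical. In the main gene tests that spread was pooled over all 14 groups of the series, and not taken from the compared groups alone. The other groups were heterozygous mKO muscles at 7 dpi and wild-type and homozygous muscles at 3 dpi, each with AAV or saline.

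Titin is the elastic filament that spans each sarcomere from Z-disc to M-band and carries passive force. Muscle damage is commonly followed by an early phase of macrophage entry, fibroblast activity and matrix deposition, in which regenerating fibres use embryonic and perinatal myosins. T cells and natural killer cells can release interferon gamma, which switches on guanylate-binding proteins, the chemokines Cxcl9 and Cxcl10, and the machinery that cuts proteins into peptides and shows them on MHC class I and class II molecules. Type I interferons use another receptor and switch on a partly overlapping set of genes. B cells mature into plasma cells, which secrete immunoglobulin.

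The recovered reads of the homozygous libraries were 6.9 M in AAV 7 dpi replicate 2 and 19.74 M to 27.18 M in the others. Markers of muscle fibres were abundant in every group: the summed level of 7 fibre genes ranged from 46439 to 95230 in AAV muscles and from 126210 to 146287 in saline muscles at 21 dpi, and from 62929 to 86062 in AAV muscles and from 124235 to 132659 in saline muscles at 7 dpi. A first principal component was taken over the homozygous and wild-type libraries of 7 and 21 dpi (59.6% of their variance). On it AAV 21 dpi replicate 4 of the homozygous muscles lay at 29.7. The other homozygous AAV libraries of that day lay at 70.9 to 99.1, and those of 7 dpi at 20.8 to 41.9. Saline 7 dpi replicate 4 stood apart in genes induced by interferon, with 57 normalised counts of Gbp2 against 6.38 to 9.48 in the other saline libraries of its day. The viral transgene was more abundant at the later day: it had 127, 465, 1103 and 866 normalised counts in the AAV muscles at 21 dpi, against 23.8, 29, 20.8, 24.1 and 14.3 at 7 dpi (log2 difference 4.42, exact two-sided permutation p = 0.0159, the smallest this design allows). Transgene level and day therefore moved together in the homozygous muscles, and their parts in the shift cannot be told apart.

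Across the transcriptome, 982 of the 13017 genes tested had a higher response at 21 than at 7 dpi (7.54%) and 816 had a lower one (6.27%) at a limma adjusted p under 0.05. edgeR on recovered reads called 1048 higher (8.05%) and 710 lower (5.45%), DESeq2 1107 (8.5%) and 834 (6.41%), and limma voom 548 (4.21%) and 710 (5.45%). The upward shifts were the larger ones, with a median of 1.06 (log2) and 124 genes past 2, against a median size of 0.55 and 4 genes past 2 among the downward shifts. The responses of single AAV libraries at 21 dpi all lay above those at 7 dpi for 663 of the 982 genes (1111 of all genes tested, 8.53%) and all below for 539 of the 816 (966 of all genes tested, 7.42%). These counts use the same values as the calls, so they describe the called shifts and are no separate test of them. Leaving out AAV 21 dpi replicate 1 reduced the calls to 590 higher and 471 lower, and leaving out AAV 21 dpi replicate 4 raised them to 1662 higher and 1583 lower. A fit of only the 4 homozygous groups called 344 higher and 271 lower. Of the genes named in what follows, that fit did not call Acadm, Adgre1, Arhgap27, C1qa, Calr, Cfb, Des, Ets1, Fn1, Gimap6, Grap, Gsdmd, Ifngr2, Irf9, Jph1, Mcm5, Mturn, Mybph, Mybpc1, Myh4, Pi16, Tgtp2, Tln2, Tmem140, Togaram2, Trdn, Xdh or mt-Atp6.

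The shift came mostly from the AAV side. Between saline muscles at 21 and 7 dpi, limma called 1 gene (0.00768%), the predicted gene Gm10221, with 601 genes at an unadjusted p under 0.05. edgeR called 0 of these saline changes and DESeq2 called 2, with 637 and 667 genes at an unadjusted p under 0.05. Between AAV muscles at 21 and 7 dpi, 2074 genes were higher (15.9%) and 1844 lower (14.2%). Among the 982 genes with an upward shift the median change between days was 0.88 in AAV muscles and -0.15 in saline muscles. Among the 816 with a downward shift it was -0.48 in AAV muscles and 0.06 in saline muscles.

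Both days had broad responses of their own, with 3863 genes higher (29.7%) and 3851 lower (29.6%) in AAV than in saline muscles at 21 dpi, and 2687 higher (20.6%) and 2929 lower (22.5%) at 7 dpi. The 2045 genes higher on both days made up 52.9% of the later list and 76.1% of the earlier one, and the 2406 genes lower on both days made up 62.5% and 82.1%. Of the 982 upward shifts, 509 belonged to genes called higher at 21 dpi alone and 389 to genes higher on both days, whose median response was 2.37 at 21 dpi and 0.92 at 7 dpi. Another 48 genes were lower at 7 dpi and not called at 21 dpi, and 18 were lower at 7 dpi and higher at 21 dpi. Of the 816 downward shifts, 363 belonged to genes called lower at 21 dpi alone and 255 to genes lower on both days, whose median response was -1.0 at 21 dpi and -0.43 at 7 dpi. Another 135 genes were higher at 7 dpi and not called at 21 dpi, and 44 were higher at 7 dpi and lower at 21 dpi. The classes are built from the same values as the shift and describe it. The response of 1641 genes higher on both days and of 2146 genes lower on both days had no called shift.

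**Figure D1:**
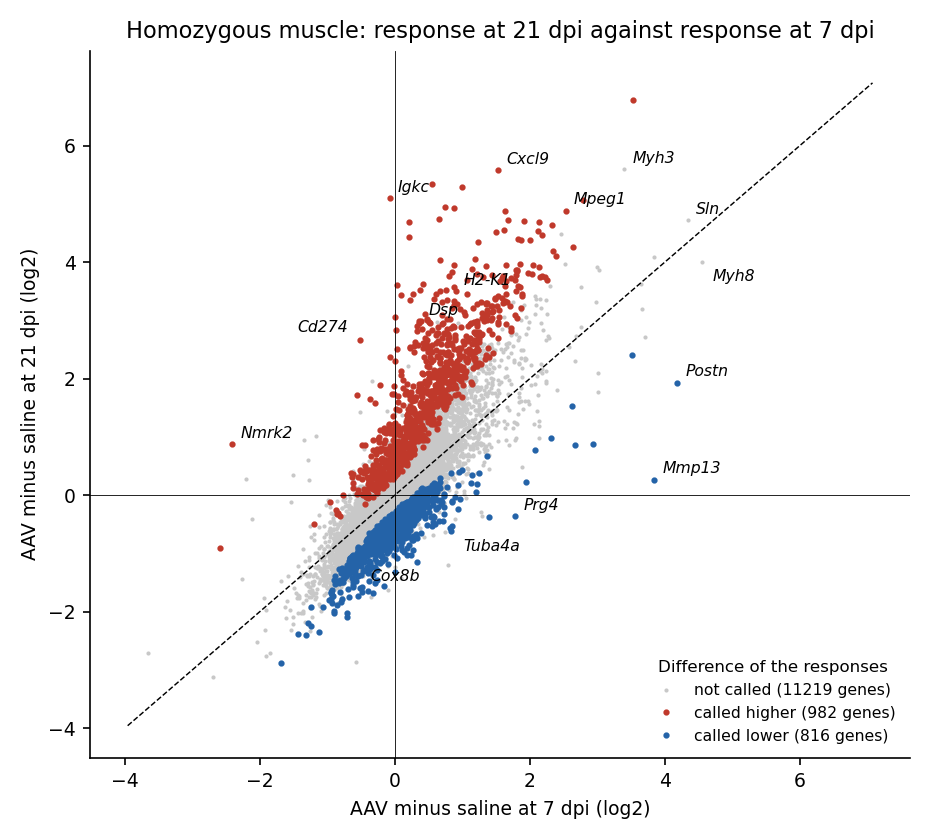
Each point is 1 of the 13017 genes tested in homozygous muscle, with its response (AAV minus saline, log2) at 21 dpi on the vertical axis and at 7 dpi on the horizontal axis. Coloured points are the 982 genes with a higher and the 816 with a lower response at 21 dpi, and the upward shifts reach farther from the diagonal of equal responses than the downward ones.

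Immunoglobulin genes were among the largest upward shifts. Igkc, which encodes the constant part of the kappa light chain (chr6:70726435-70726966, GRCm38, plus strand), had 176, 50.8, 23.4 and 69.5 normalised counts in the AAV muscles at 21 dpi, against 0.876, 2.22, 0.436 and 0.283 in the saline muscles. Its values at 7 dpi were 0.539, 0.426, 0.239, 0.164 and 0.358 in the AAV muscles, against 0.104, 0.546, 0.691 and 0.381 in the saline muscles. The AAV muscles at 21 dpi lay above every other homozygous library, and the groups at 7 dpi overlapped. The shift was 5.19 ± 0.57 (log2 ± SE, limma adjusted p = 4.28e-08), from a response of 5.11 at 21 dpi and -0.08 at 7 dpi. Jchain, the chain that joins secreted IgA and IgM, shifted by 3.59, and the heavy chain genes Ighg2b, Ighg2c and Igha by 4.47, 4.24 and 3.34. Reads of immunoglobulin segments can be divided among similar genes by the quantification, which leaves the values of single heavy chains uncertain. Ighg2b had 0 reads in 3 of the 4 saline libraries at 21 dpi and in all 4 at 7 dpi; its shift was called by limma, with an adjusted p of 0.977 by edgeR and 0.48 by DESeq2. edgeR also did not call Ighg2c and Igha (adjusted p = 0.128 and 0.257). With limma voom none of these immunoglobulin genes was called, Igkc and Jchain included (adjusted p = 0.103 and 0.14).

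Of the 19 B and plasma cell genes in the table, 15 shifted up with no minimum level applied, and 0 shifted down (background 8.53% up and 5.66% down). The summed level of the list was lowest 210, median 307 and highest 789 in AAV muscles and 96.2, 106 and 108 in saline muscles at 21 dpi, and 72.8, 76.9 and 81.4 in AAV muscles and 75.1, 88.1 and 91.3 in saline muscles at 7 dpi. In whole muscle, a change in the number of cells of a type and a change in RNA per cell cannot be told apart.

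Genes of T cells and natural killer cells shifted up together. With no minimum level, 24 of the 24 genes of the list had a called upward shift, and the 15 that passed the minimum had a median shift of 2.60, against 0.00 over all genes tested. Members may have passed the minimum only through their level in the AAV muscles at 21 dpi. Their summed level was 88, 215 and 342 (lowest, median and highest) in AAV muscles and 3.69, 4.15 and 6.22 in saline muscles at 21 dpi, and 11.1, 20 and 35.1 in AAV muscles and 4.32, 5.11 and 5.73 in saline muscles at 7 dpi. In each saline group 3 of the 24 genes had 0 reads in every library. The calls differed between tools: of the 15 genes, edgeR called 9, DESeq2 10 and limma voom 1 (8.05%, 8.5% and 4.21% of all genes).

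Cd8a, the coreceptor chain of cytotoxic T cells, had 32.4, 15.4, 22.8 and 6.92 normalised counts in AAV muscles at 21 dpi, from 988, 436, 711 and 209 reads, against 1, 10, 2 and 1 reads in saline muscles. The values of 7 dpi were 29, 16, 9, 28 and 8 reads in AAV muscles, against 0 reads in all 4 saline muscles. Its shift was 3.07 ± 0.47 by limma (adjusted p = 9.78e-06). On ratios of reads the shift was -0.29 by edgeR (adjusted p = 0.744) and 0.29 by DESeq2 (adjusted p = 0.936); the 7 dpi response is taken against a group with 0 reads, where a fitted fold depends on the prior count. The difference between AAV muscles at 21 and 7 dpi does not use those saline libraries and was called for all 15 genes tested.

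Other members of the list had the same order of groups. Lck, the kinase that starts T cell receptor signalling, had 6.26 to 18 normalised counts in AAV muscles and 0.0623 to 0.311 in saline muscles at 21 dpi, and 0.509 to 2.13 and 0.0762 to 0.384 at 7 dpi (shift 2.77 ± 0.36, limma adjusted p = 1.41e-06). Cd3g, a subunit of the T cell receptor complex, shifted by 2.84, Nkg7, a cytotoxic granule protein, by 2.71, and Cd4, the coreceptor of helper T cells, by 1.80. Il2rb, a receptor chain for interleukin 2, had 37.6, 25.5, 28.2 and 10.7 normalised counts in AAV muscles at 21 dpi and 2.38, 4.32, 1.55, 3.99 and 1.45 at 7 dpi, with at most 0.534 in any saline muscle (shift 2.94 ± 0.45 by limma, adjusted p = 9.78e-06). The AAV muscles of the later day lay above those of the earlier day in all of these genes. Of the T cell activation and checkpoint list, 13 of 15 genes shifted up with no minimum level, among them the inhibitory receptors Lag3 (2.46) and Havcr2 (1.97). edgeR did not call Nkg7, Cd4 or Havcr2 (adjusted p = 0.288, 0.38 and 0.0577).

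**Figure D2:**
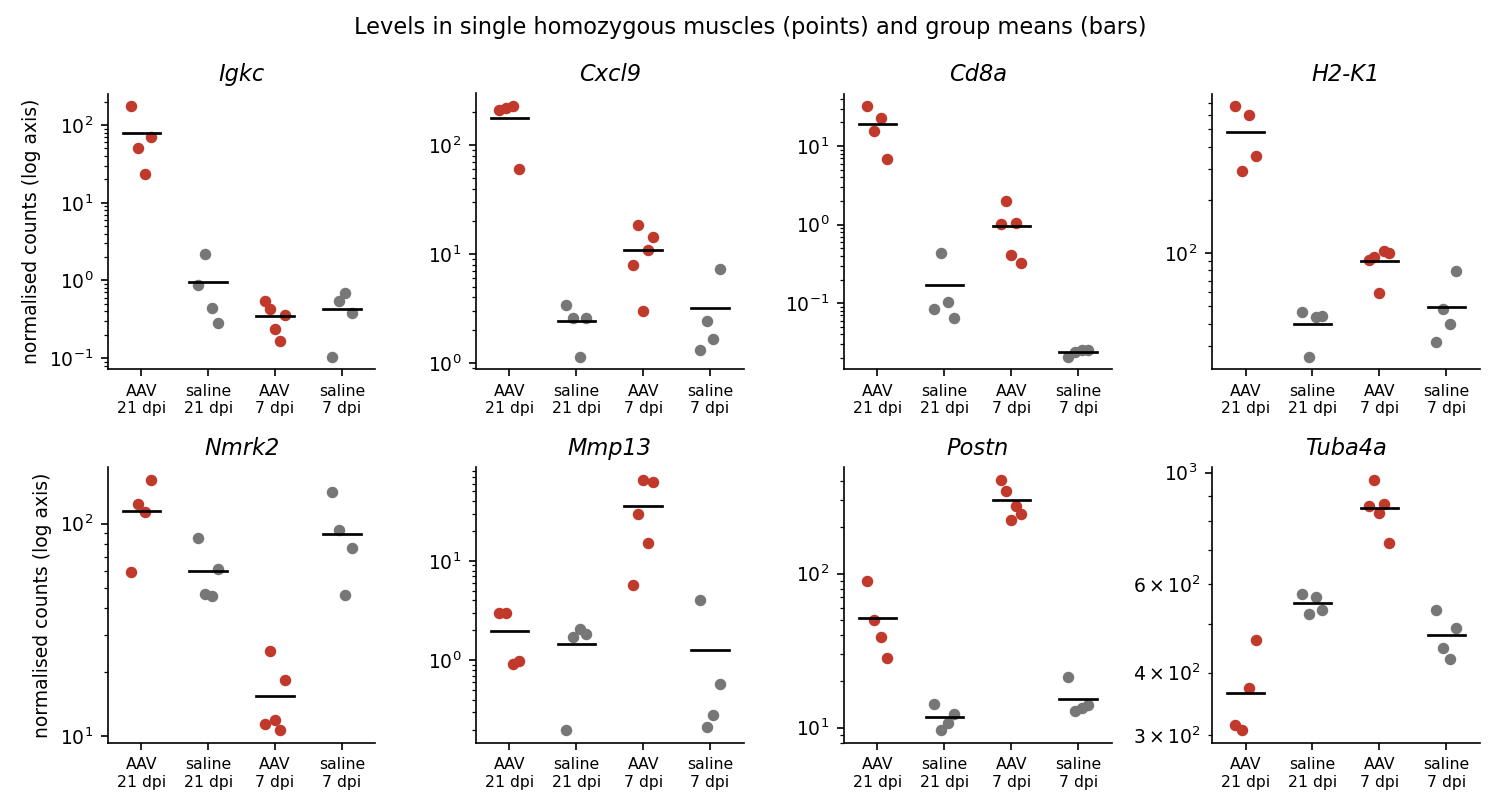
Normalised counts (log axis) of 8 genes in single homozygous muscles, red for AAV and grey for saline, with the AAV group left of the saline group of each day and 21 dpi left of 7 dpi; black bars are arithmetic means. Igkc, Cxcl9, Cd8a and H2-K1 were highest in AAV muscles at 21 dpi, Mmp13, Postn and Tuba4a were highest in AAV muscles at 7 dpi, and Nmrk2 was lowest there; libraries with 0 reads of a gene are drawn at the value the table gives them.

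Ifng itself, which encodes interferon gamma, was below the minimum level and was not tested. It had 99, 40, 93 and 13 reads in the AAV muscles at 21 dpi, against 0 reads in all 4 saline muscles, and 3, 1, 0, 0 and 0 reads in the AAV muscles at 7 dpi, against 1, 3, 0 and 0 in the saline muscles. Of the 26 interferon gamma and GTPase genes, all of them tested, 24 shifted up and 1 shifted down, with a median shift of 2.57 and a median response of 3.06 at 21 dpi and 0.47 at 7 dpi. Leaving out single libraries gave 22 to 25 upward calls. At 21 dpi 25 of them were higher and at 7 dpi 7, and 1 was lower on each day. The downward shift belonged to Ifngr2, a subunit of the interferon gamma receptor, at -0.46 ± 0.12 (limma adjusted p = 0.00944). It had 49, 46.5, 48.4 and 59.5 normalised counts in AAV muscles and 78.1, 94, 98.1 and 99.8 in saline muscles at 21 dpi.

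Cxcl9, a chemokine that draws activated T cells, had 211, 218, 229 and 60.3 normalised counts in AAV muscles at 21 dpi, against 3.42, 2.6, 1.14 and 2.59 in saline muscles. At 7 dpi it had 7.94, 18.4, 3.03, 10.8 and 14.4 in AAV muscles, against 1.31, 2.45, 1.66 and 7.34 in saline muscles. The AAV groups of both days were far apart, with replicate 4 the lowest at 21 dpi (shift 4.06 ± 0.64 by limma, adjusted p = 2.01e-05). Cxcl10, which binds the same receptor, had 49.7, 59.5, 58.7 and 20.8 normalised counts in AAV muscles at 21 dpi and 3.95, 9.3, 3.07, 6.83 and 5.6 at 7 dpi, with 0.254 to 0.643 and 0.309 to 3.15 in the saline muscles of these days (shift 3.24 ± 0.52).

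The guanylate-binding proteins and immunity-related GTPases, which attack membranes around intracellular microbes, had several of the largest upward shifts. Gbp6 had 174, 495, 360 and 60.8 normalised counts in AAV muscles at 21 dpi, against 5.46, 9.46, 4.5 and 8.96 in saline muscles. Its values at 7 dpi were 9.75, 20.4, 10.9, 18.8 and 28.9 in AAV muscles, against 4.01, 7.62, 7.4 and 41.1 in saline muscles, where replicate 4 exceeded every AAV library. Its shift was 4.10 ± 0.75 (limma adjusted p = 1.92e-04) and 3.46 without that saline library. Iigp1 shifted by 4.28, Gbp10 by 4.05, Gbp2 by 3.21, Tgtp2 by 3.18, Gbp8 by 3.14 and Igtp by 3.02. Without saline 7 dpi replicate 4 these shifts were, in the same order, 3.49, 3.79, 2.54, 2.37, 3.01 and 2.47 (limma adjusted p at most 0.0323). Gbp4 was not called at 2.02 ± 0.72 (limma adjusted p = 0.051), and at 7 dpi it had 121 normalised counts in saline replicate 4 against 8.73 to 10 in the other saline libraries; without that library the shift was 1.14 (adjusted p = 0.221). It was called in 11 of 29 alternatives, among them edgeR (2.97, adjusted p = 0.00946), DESeq2 (2.97, adjusted p = 0.00438) and the fits without AAV 21 dpi replicate 4 (2.43, adjusted p = 0.0107), AAV 7 dpi replicate 5 or saline 7 dpi replicate 1, 2 or 3 (adjusted p of 0.019 to 0.0349). Several of these genes have near-identical neighbours, so that reads may be divided among them. Without saline 7 dpi replicate 4, 22 of the 26 genes had a called upward shift, and the median was 2.22.

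Cd274, which encodes the checkpoint ligand PD-L1, had 46.2, 71.9, 55.9 and 19.4 normalised counts in AAV muscles at 21 dpi and 4.22, 6.14, 3.59, 5.34 and 13.8 at 7 dpi. Its saline values were 5.21 to 7.21 at 21 dpi and 4.43, 5.25, 4.79 and 48.5 at 7 dpi, so that replicate 4 alone gave its 7 dpi response a negative sign (-0.52, not called). The shift of Cd274 was 3.18 ± 0.61 (limma adjusted p = 3.06e-04) and 2.41 without that library (adjusted p = 0.00118).

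The promoters of interferon-induced genes often hold the core of the interferon-stimulated response element (GAAA, any 2 bases, GAAA), bound by interferon regulatory factors. The RefSeq promoters used (GRCm38.p6) span 250 bases before to 50 bases after the start of a gene. Shown 5′ to 3′ on the gene's strand are 3 genes of the interferon gamma list with a large shift and, for contrast, Isg15, a type I interferon gene whose shift was not called; capitals mark the core on either strand. Cxcl10 (chr5:92348840-92349139, minus strand) holds it with the first base at -213 from the start, Gbp2 (chr3:142620413-142620712, plus strand) on the opposite strand at -59, Igtp (chr11:58199306-58199605, plus strand) at -34, and Isg15 (chr4:156200769-156201068, minus strand) has 3 overlapping copies at -78, -72 and -66.
Cxcl10: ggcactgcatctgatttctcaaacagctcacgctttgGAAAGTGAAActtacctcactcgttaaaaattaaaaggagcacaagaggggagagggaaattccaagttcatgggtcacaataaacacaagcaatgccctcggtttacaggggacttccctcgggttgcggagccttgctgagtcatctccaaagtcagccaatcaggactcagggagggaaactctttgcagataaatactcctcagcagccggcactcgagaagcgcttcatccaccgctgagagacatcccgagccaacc
Gbp2: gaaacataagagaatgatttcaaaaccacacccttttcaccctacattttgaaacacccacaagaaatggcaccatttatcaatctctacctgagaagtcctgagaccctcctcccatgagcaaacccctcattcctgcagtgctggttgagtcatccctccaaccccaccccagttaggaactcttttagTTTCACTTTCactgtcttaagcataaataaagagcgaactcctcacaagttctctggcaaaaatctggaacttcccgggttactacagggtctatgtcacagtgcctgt
Igtp: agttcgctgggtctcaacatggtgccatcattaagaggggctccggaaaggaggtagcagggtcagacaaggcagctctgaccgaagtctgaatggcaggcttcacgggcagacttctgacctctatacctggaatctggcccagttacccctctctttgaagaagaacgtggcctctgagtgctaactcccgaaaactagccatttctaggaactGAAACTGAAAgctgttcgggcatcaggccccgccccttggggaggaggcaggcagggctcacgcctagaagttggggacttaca
Isg15: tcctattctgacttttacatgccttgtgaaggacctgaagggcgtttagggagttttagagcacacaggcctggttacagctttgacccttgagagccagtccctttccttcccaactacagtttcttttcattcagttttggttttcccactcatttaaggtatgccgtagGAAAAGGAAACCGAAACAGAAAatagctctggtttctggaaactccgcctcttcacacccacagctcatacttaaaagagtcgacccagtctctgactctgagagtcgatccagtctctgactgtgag

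The core was present in 11 of 18 promoters of the interferon gamma list (61.1%) and equally in 11 of 18 of the type I list (61.1%), against 381 of 9873 promoters of tested genes (3.86%). The gamma activated site TTCNNNGAA, which reads the same on both strands, was in 8 of 18 promoters of the interferon gamma list (44.4%), 4 of 18 of the type I list (22.2%) and 814 of 9873 overall (8.24%). Of the MHC class I list 5 of 17 promoters held the response element core (29.4%) and 2 of 17 the gamma activated site (11.8%), and of MHC class II 0 of 6 held the core. The Cxcl9 promoter had neither motif in this window, although its shift was among the largest. A match describes the letters of the window and does not show that a factor binds there.

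Antigen presentation shifted up in nearly every gene measured. All 20 genes of the MHC class I and immunoproteasome list had a called upward shift (median 2.18; median response 2.79 at 21 dpi and 0.65 at 7 dpi); leaving out single libraries gave 18 to 20. H2-K1, a classical MHC class I heavy chain, had 677, 292, 601 and 353 normalised counts in AAV muscles at 21 dpi, against 46.5, 26, 43.6 and 44 in saline muscles. At 7 dpi it had 92, 95.5, 59.4, 103 and 100 in AAV muscles, against 31.6, 48.3, 39.6 and 79.2 in saline muscles. The AAV muscles at 21 dpi were above all others, and the groups overlapped at 7 dpi through saline replicate 4 alone (shift 2.60 ± 0.40, limma adjusted p = 1.23e-05). Without that library the shift was 2.35 (limma adjusted p = 9.55e-05), and 19 of the 20 genes were called, with a median of 1.82. Psmb10, an immunoproteasome subunit, shifted by 2.15 and Tapbpl, a peptide editor for class I molecules, by 2.23. Reads of MHC heavy chains may be divided among similar genes.

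The MHC class II list started from a higher level at 7 dpi. Its summed level was 707, 1642 and 3358 (lowest, median and highest) in AAV muscles and 38.8, 78.2 and 80.6 in saline muscles at 21 dpi, and 352, 521 and 589 in AAV muscles and 105, 121 and 157 in saline muscles at 7 dpi. All 9 genes tested were higher at 21 dpi and 7 of them at 7 dpi, and all 9 shifted up (median 2.40), of which limma voom called 4. Part of this shift lay in the saline muscles, whose median change between days was -0.73 (0 genes called), against 1.71 in AAV muscles (9 called higher). H2-Ab1, a class II beta chain, had 490, 171, 271 and 118 normalised counts in AAV muscles and 8.4, 8.21, 10.1 and 5.21 in saline muscles at 21 dpi. Its values at 7 dpi were 73.2, 72.1, 44.6, 81.4 and 79.2 in AAV muscles and 18.2, 13.8, 15.9 and 23.4 in saline muscles (shift 2.79 ± 0.50, limma adjusted p = 1.26e-04). Ciita, the master regulator of class II genes, shifted by 2.59. The AAV and saline libraries of H2-Ab1 did not overlap on either day.

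Type I interferon genes responded on both days, and only some of them shifted. Of 25 tested, 25 were higher at 21 dpi and 18 at 7 dpi (median responses 1.92 and 1.04), and 7 shifted up (median 0.95). Without AAV 21 dpi replicate 4 the upward count was 14, and without AAV 21 dpi replicate 1, AAV 7 dpi replicate 1 or saline 21 dpi replicate 3 it was 4 each. Zbp1, a sensor of Z-form nucleic acids, shifted by 2.58, Parp14, an ADP-ribosyltransferase, by 2.00 and Irf9 by 1.01. Isg15, a ubiquitin-like protein, had 20.4, 8.7, 6.39 and 3.09 normalised counts in AAV muscles and 2.29, 1.18, 1.06 and 1.42 in saline muscles at 21 dpi. The values of 7 dpi were 2.35, 7.97, 4.42, 5.34 and 4.36 in AAV muscles and 0.52, 1.88, 1.31 and 1.85 in saline muscles. The AAV muscles of both days overlapped, and the shift was 0.59 ± 0.50 (limma adjusted p = 0.473), or 0.96 without AAV 21 dpi replicate 4 (adjusted p = 0.152).

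Macrophage genes were raised on both days. Of 20 genes, 19 were higher on each day (median responses 3.42 at 21 dpi and 1.93 at 7 dpi) and 11 shifted up (median 1.44). The summed level was 391, 1139 and 3394 (lowest, median and highest) in AAV muscles and 51, 93.7 and 116 in saline muscles at 21 dpi, and 369, 597 and 602 in AAV muscles and 91.6, 124 and 138 in saline muscles at 7 dpi. The count rests on AAV 21 dpi replicate 1, without which 3 genes shifted up; it was 7 without AAV 21 dpi replicate 3, AAV 7 dpi replicate 3, saline 21 dpi replicate 4 or saline 7 dpi replicate 4, 3 in a fit of only the homozygous groups and 1 with limma voom. Mpeg1, a pore-forming protein of macrophages, had 442, 110, 155 and 40.1 normalised counts in AAV muscles and 5.74, 4.38, 2.76 and 2.03 in saline muscles at 21 dpi. At 7 dpi it had 45.1, 58.3, 27.6, 54.2 and 43.9 in AAV muscles and 7.96, 4.87, 7.6 and 7.39 in saline muscles (shift 2.35 ± 0.61, limma adjusted p = 0.00721). Replicate 1 was highest at 21 dpi, and replicate 4 lay within the AAV range of 7 dpi.

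Adgre1, the usual surface marker of mouse macrophages, shifted by 1.52 ± 0.49 (limma adjusted p = 0.0304) and by 0.95 without AAV 21 dpi replicate 1 (adjusted p = 0.163); it was also not called without AAV 21 dpi replicate 3, AAV 7 dpi replicate 3, saline 21 dpi replicate 3 or 4 or saline 7 dpi replicate 4 (adjusted p of 0.0543 to 0.0674). C1qa, a subunit of complement C1q made by macrophages, shifted by 1.85, and by 1.35 without that library (adjusted p = 0.0628). Itgax, an integrin of dendritic cells and activated macrophages, shifted by 2.86. Of 12 genes of phagocytic and osteopontin macrophages, 9 were higher at 21 dpi and 8 at 7 dpi, and 0 shifted up and 1 down (median 0.11), with 0 to 2 down when single libraries were left out. Over all genes tested 7.54% shifted up and 6.27% down. Dendritic cell genes shifted up in 6 of 9 tested, and in 2 without AAV 21 dpi replicate 1; Ccr7, which guides dendritic and T cells to lymphatics, shifted by 1.44 and Xcr1, a receptor of cross-presenting dendritic cells, by 1.20; edgeR did not call Ccr7 (adjusted p = 0.428). Of the neutrophil list 2 genes were tested and 0 were called, and of 5 mast cell and eosinophil genes 0 were called.

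Chemokines, complement and cell death genes followed with smaller counts. Of 16 chemokine genes 9 shifted up (median 1.27), and edgeR called 4 and DESeq2 5; Ccl5, a T cell product, shifted by 3.04 and Ccl19, a ligand of Ccr7, by 1.60 (edgeR adjusted p = 0.0722 and 0.097). Of 16 complement genes 8 shifted up (median 0.84), but 1 without AAV 21 dpi replicate 1, 4 without AAV 21 dpi replicate 2, 5 without AAV 21 dpi replicate 3, saline 21 dpi replicate 3 or saline 21 dpi replicate 4, and 3 without AAV 7 dpi replicate 3. C2, a classical pathway protease, shifted by 1.33, and Cfb, complement factor B, by 1.71, or 1.33 without AAV 21 dpi replicate 1 (limma adjusted p = 0.0588). Of 16 cell death genes 3 shifted up, among them Casp1, the inflammasome protease (1.74), and Gsdmd, the pore-forming protein it cleaves (1.29; 0.96 without AAV 21 dpi replicate 1, adjusted p = 0.0882). That count was 1 without AAV 21 dpi replicate 1, 5 without AAV 7 dpi replicate 2 and 11 without AAV 21 dpi replicate 4.

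Cell cycle genes were higher on both days, 17 of 18 at 21 dpi and 14 at 7 dpi, and 5 shifted up (median 0.92). The upward count was 1 without AAV 21 dpi replicate 1, 3 without any 1 of AAV 21 dpi replicate 3, AAV 7 dpi replicates 1, 3 and 4, saline 21 dpi replicates 2 and 4 or saline 7 dpi replicate 4, and 8 and 12 without AAV 21 dpi replicates 2 and 4. Mki67, a marker of dividing cells, had 42.2, 11.4, 17.8 and 6.59 normalised counts in AAV muscles and 0.65, 0.769, 0.436 and 0.545 in saline muscles at 21 dpi. Its values at 7 dpi were 6.59, 4.44, 5.2, 6.65 and 7.83 in AAV muscles and 1.73, 1.21, 1.92 and 1.3 in saline muscles (shift 1.90 ± 0.52, limma adjusted p = 0.01; 1.44 without AAV 21 dpi replicate 1, adjusted p = 0.056). Mcm5, a DNA replication helicase subunit, shifted by 1.35. AAV replicate 4 at 21 dpi lay within the AAV range of 7 dpi for Mki67.

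**Figure D3:**
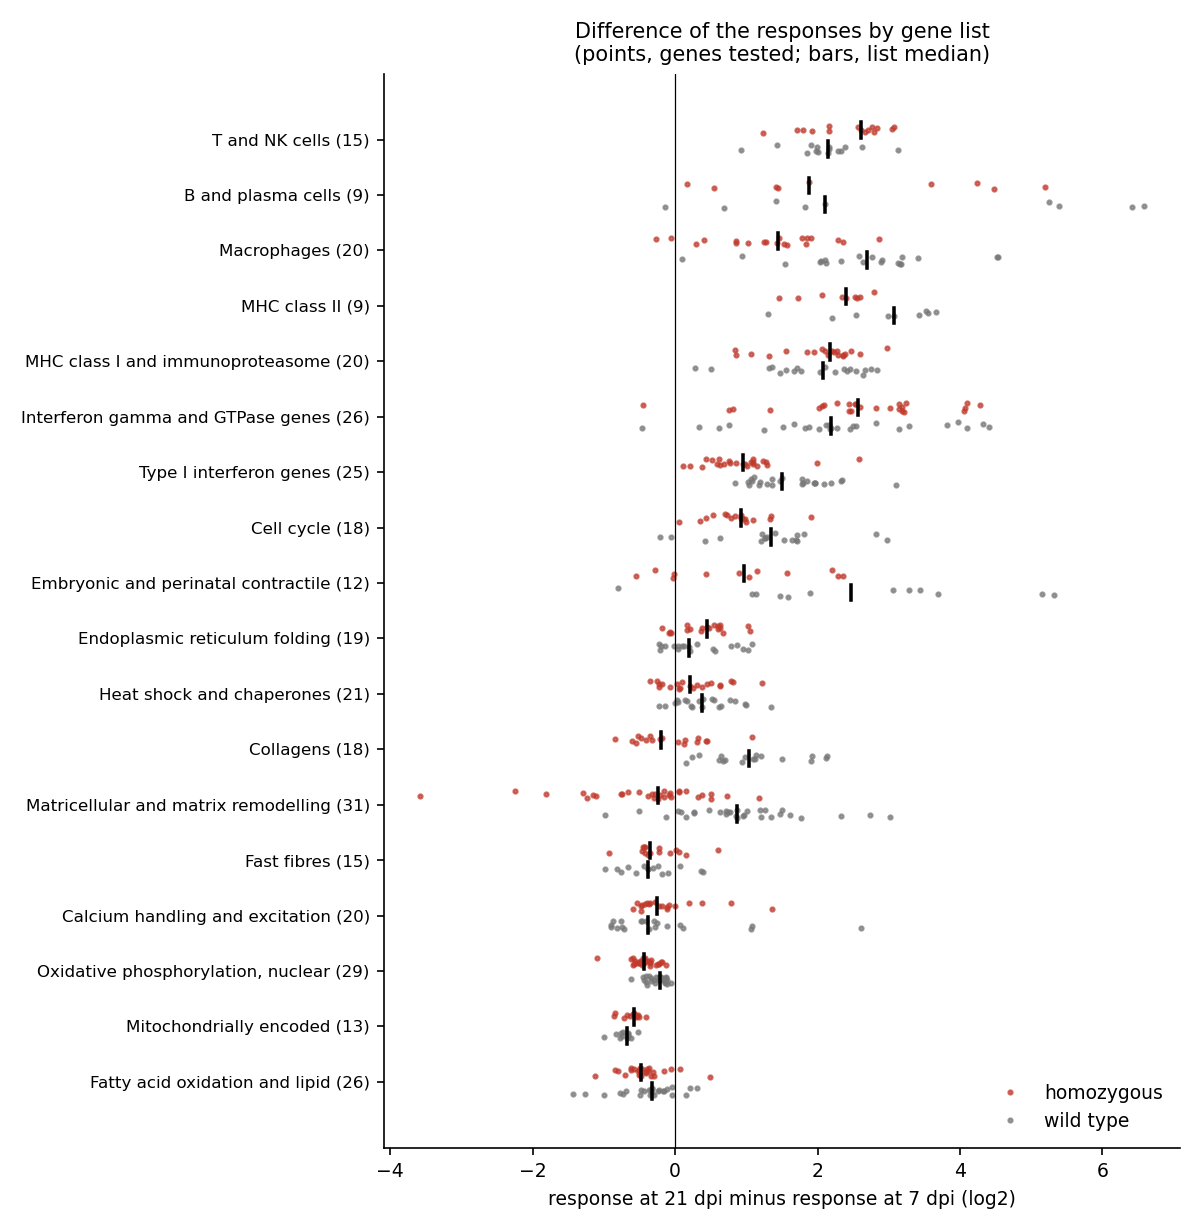
Shift (response at 21 dpi minus response at 7 dpi, log2, horizontal axis) of the tested genes of 18 gene lists, each with homozygous muscle in red above wild-type muscle in grey; points are genes, black bars are list medians and the number of tested genes stands beside each name. Immune lists lay to the right in both genotypes (T and NK cells, medians 2.60 and 2.15), and collagens lay left of 0 in homozygous muscle and right of it in wild-type muscle (medians -0.20 and 1.04).

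Matrix genes had the largest downward shifts. Mmp13, a collagenase (chr9:7272514-7283331, plus strand), had 2.96, 2.98, 0.913 and 0.975 normalised counts in AAV muscles at 21 dpi, against 0.198, 1.72, 2.05 and 1.85 in saline muscles. The values of 7 dpi were 5.75, 29.5, 65.9, 15 and 62.7 in AAV muscles, against 4.01, 0.214, 0.282 and 0.584 in saline muscles. The groups overlapped at 21 dpi and were separate at 7 dpi, and the shift was -3.58 ± 0.62 (limma adjusted p = 8.35e-05). Prg4, the lubricating proteoglycan of joints and tendon sheaths, had 6.17, 2.52, 2.77 and 3.16 in AAV muscles and 5.34, 4.01, 4.3 and 5.3 in saline muscles at 21 dpi, and 16.7, 11.9, 36.5, 9.01 and 21.9 in AAV muscles and 4.18, 6.15, 4.43 and 2.87 in saline muscles at 7 dpi (shift -2.13 ± 0.46, limma adjusted p = 0.00124). Both genes were thus raised at 7 dpi alone.

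Postn, which encodes periostin, a matricellular protein of activated fibroblasts (chr3:54361109-54391037, plus strand), was raised on both days. It had 89.6, 49.8, 38.7 and 28.4 normalised counts in AAV muscles at 21 dpi, against 14.2, 9.62, 10.7 and 12.3 in saline muscles, and 408, 345, 223, 273 and 243 in AAV muscles at 7 dpi, against 21.4, 12.8, 13.4 and 14 in saline muscles. No AAV library overlapped a saline library, and every AAV library of 7 dpi was above those of 21 dpi (response 1.93 at 21 dpi and 4.18 at 7 dpi, shift -2.25 ± 0.52, limma adjusted p = 0.00247). Cthrc1, a secreted protein of activated fibroblasts, shifted by -1.82 (edgeR adjusted p = 0.288) and Sfrp4, a secreted Wnt antagonist, by -1.72. Fn1, fibronectin, shifted by -1.30 (limma adjusted p = 0.0237), or by -1.14 without AAV 21 dpi replicate 3 (adjusted p = 0.0685) and by -1.20 without saline 21 dpi replicate 1 or 2 (adjusted p = 0.0503 and 0.0535).

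These genes did not stand for the matrix lists as a whole. Of 31 matricellular and matrix remodelling genes 5 shifted down and 1 up (median -0.24), while 24 were higher at 21 dpi and 25 at 7 dpi; the downward count was 3 without AAV 21 dpi replicate 3 or saline 21 dpi replicate 1 or 2. Of 18 collagen genes 13 were higher at 21 dpi and 12 at 7 dpi, 0 shifted down, and 1 shifted up, Col18a1, a basement membrane collagen (1.08 ± 0.26, limma adjusted p = 0.0039). Col1a1, the main fibrillar collagen, had 509, 415, 367 and 266 normalised counts in AAV muscles and 97.3 to 117 in saline muscles at 21 dpi, and 963, 1099, 426, 1003 and 569 in AAV muscles and 124 to 175 in saline muscles at 7 dpi. The AAV muscles of both days overlapped, and the shift was -0.60 ± 0.46 (adjusted p = 0.42). Over all genes tested 7.54% shifted up and 6.27% down, and the collagen counts were near that share. So were those of fibro-adipogenic and fibroblast cells, where 1 of 13 genes shifted up and 1 down. The downward one was Pi16, a marker of fibroblast progenitors (-1.16), which was not called without AAV 21 dpi replicate 1 (-0.99, adjusted p = 0.0611). The summed level of the list was 451 to 575 in AAV muscles and 302 to 403 in saline muscles at 21 dpi, and 405 to 580 in AAV muscles and 391 to 412 in saline muscles at 7 dpi.

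Several genes changed the sign of their response. Nmrk2, which encodes nicotinamide riboside kinase 2, an enzyme of NAD synthesis in muscle (chr10:81198170-81202051, minus strand), had 59.5, 123, 113 and 161 normalised counts in AAV muscles at 21 dpi, against 86, 46.6, 45.7 and 61.4 in saline muscles. At 7 dpi it had 11.5, 25.2, 11.9, 10.7 and 18.4 in AAV muscles, against 140, 93.7, 46.1 and 77.1 in saline muscles. The AAV muscles were below every saline muscle at 7 dpi, while at 21 dpi 3 of the 4 were above every saline muscle. The response was 0.88 at 21 dpi and -2.41 at 7 dpi, and the shift 3.29 ± 0.43 (limma adjusted p = 1.41e-06). Of the list of 15 NAD and nucleotide enzymes it was the 1 gene with an upward shift.

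Tuba4a, an alpha tubulin abundant in muscle (chr1:75214228-75219865, minus strand), moved the other way. It had 314, 307, 372 and 465 normalised counts in AAV muscles at 21 dpi, against 573, 524, 566 and 533 in saline muscles, and 858, 969, 830, 865 and 723 in AAV muscles at 7 dpi, against 533, 448, 426 and 491 in saline muscles. The groups were separate on both days and in opposite order (responses -0.61 and 0.84, shift -1.45 ± 0.19, limma adjusted p = 1.64e-06). Cltb, a clathrin light chain, had the same pattern, with 43.6 to 66.8 in AAV muscles and 80.1 to 98.3 in saline muscles at 21 dpi, and 114 to 132 in AAV muscles and 77.9 to 87.7 in saline muscles at 7 dpi (shift -1.08 ± 0.14, adjusted p = 1.27e-06). Gstp2, a glutathione transferase, shifted by -1.38. Other genes with a sign change were Erap1, which trims peptides for MHC class I (0.52 at 21 dpi and -0.32 at 7 dpi, shift 0.84), Inpp1, an inositol phosphatase (shift 0.94), and Galnt7, a glycosyltransferase (shift 0.87). Arhgap27 and Grap, both signalling proteins, also changed sign (shifts 0.94 and 0.85), and their shifts were not called without AAV 21 dpi replicate 1 (0.64 and 0.65, adjusted p = 0.0677 and 0.0934).

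Other responses were gone at the later day. Sod1, cytosolic superoxide dismutase, had 76.4, 90.6, 84.8 and 86.5 normalised counts in AAV muscles and 83.8, 79.7, 88.4 and 85 in saline muscles at 21 dpi. Its values at 7 dpi were 120, 115, 137, 129 and 125 in AAV muscles and 89.3, 79.5, 77.2 and 84.2 in saline muscles. The groups were separate at 7 dpi and overlapped at 21 dpi (responses 0.00 and 0.59, shift -0.59 ± 0.11, limma adjusted p = 1.40e-04). Mt3, a metallothionein, shifted by -2.06 (edgeR adjusted p = 0.235). In the other direction, Xdh, xanthine dehydrogenase, was lower at 7 dpi and not called at 21 dpi (shift 0.97; 0.74 without saline 7 dpi replicate 4, adjusted p = 0.0424), as were Idi1, an enzyme of isoprenoid synthesis (0.85), and Tmem140 (1.02). Gimap6, a GTPase of lymphocytes, and Ets1, a transcription factor of lymphocytes and endothelium, shifted by 0.83 and 0.76, and by 0.66 and 0.59 without AAV 21 dpi replicate 1 (adjusted p = 0.0575 and 0.0666).

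Clu, the secreted chaperone clusterin, had 21.2, 12.8, 16.4 and 26.7 normalised counts in AAV muscles and 30.9 to 56.1 in saline muscles at 21 dpi, and 37.5 to 72.8 in AAV muscles and 31.7 to 65.5 in saline muscles at 7 dpi (shift -1.49 ± 0.31, limma adjusted p = 0.00101). Aqp4, the water channel of fast fibres, had 15.4, 20.1, 22.1 and 37.3 in AAV muscles and 55.2 to 86.1 in saline muscles at 21 dpi, and 54.1 to 75.3 in AAV muscles and 47.5 to 113 in saline muscles at 7 dpi (shift -1.40 ± 0.36, adjusted p = 0.00645). In both genes the groups were separate at 21 dpi and overlapped at 7 dpi. Further downward shifts of this kind were those of Togaram2 (-1.35), Fxyd6, a regulator of the sodium pump (-1.32), Fzd9, a Wnt receptor (-1.26), Rph3al (-1.25) and Clip4 (-1.22).

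Nuclear genes of oxidative phosphorylation were lower on both days, and about as many shifted down as did not pass the test. All 29 were lower at 21 dpi (median response -1.0) and 28 at 7 dpi (-0.64), and 15 shifted down (median -0.44). Without AAV 21 dpi replicate 4 the count was 28, without AAV 21 dpi replicate 1 it was 10, and a fit of only the homozygous groups called 6. Cox8b, a subunit of cytochrome oxidase in muscle, had 39.3, 48.8, 39 and 75.6 normalised counts in AAV muscles at 21 dpi, against 134, 150, 154 and 155 in saline muscles. The values of 7 dpi were 70.5, 87.4, 100, 75.3 and 111 in AAV muscles, against 121, 124, 120 and 129 in saline muscles. Every AAV muscle was below every saline muscle of its day (shift -1.09 ± 0.23, limma adjusted p = 7.68e-04). Ndufs3 and Ndufv2, subunits of complex I, shifted by -0.61 and -0.55.

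The 13 mitochondrially encoded genes were lower on both days (median responses -1.50 and -0.94), and 5 shifted down (median -0.58). The count was 12 without AAV 21 dpi replicate 4 and between 1 and 3 without any 1 of AAV 21 dpi replicates 1, 2 and 3, AAV 7 dpi replicates 2, 3 and 5 or the 8 saline libraries, and it was 0 after quantile normalization. mt-Atp6, an ATP synthase subunit, had 6690, 6848, 6695 and 5622 normalised counts in AAV muscles and 21437, 20537, 18827 and 21203 in saline muscles at 21 dpi, and 9229, 11589, 12534, 9054 and 9711 in AAV muscles and 19131, 18209, 17732 and 17504 in saline muscles at 7 dpi (shift -0.86 ± 0.26, limma adjusted p = 0.0198; -0.54 after quantile normalization, adjusted p = 0.207). Of 26 fatty acid oxidation and lipid genes 24 were lower at 21 dpi and 19 at 7 dpi, and 5 shifted down (median -0.48), among them Acadm, medium-chain acyl-CoA dehydrogenase (-0.80). That count was 13 without AAV 21 dpi replicate 4, 8 without AAV 7 dpi replicate 4 or saline 7 dpi replicate 1, 3 without AAV 21 dpi replicate 1 or 2, AAV 7 dpi replicate 3 or saline 7 dpi replicate 3, and 2 without AAV 21 dpi replicate 3 or saline 21 dpi replicate 1. Of 20 glycolysis and glycogen genes all were lower at 21 dpi and 14 at 7 dpi. Of these 20, 1 shifted down (median -0.39), near the share of 6.27% over all genes tested. Leaving out single libraries gave 0 to 18, the highest without AAV 21 dpi replicate 4. These lists moved together with a lower summed level of fibre markers in AAV muscles, and the part of fibre content in them was not tested.

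The lists of fast fibres, slow fibres and titin with its ligands held 0 to 2 called shifts in each direction. Over all genes tested 7.54% shifted up and 6.27% down, and the downward counts of these lists were near that share. Fast fibre genes were mostly lower on both days. Of 15 fast fibre genes 12 were lower at 21 dpi and 11 at 7 dpi, and 1, Myh4, shifted down (median -0.35). Leaving out single libraries gave 0 to 7, the highest without AAV 21 dpi replicate 4. After quantile normalization 0 were called (median -0.06), with Myh4 at -0.64 (limma adjusted p = 0.0718). Myh4, the myosin heavy chain of fast IIb fibres, had 9741, 11065, 14663 and 21727 normalised counts in AAV muscles and 42862, 42562, 53946 and 59379 in saline muscles at 21 dpi, and 27520, 20148, 23519, 16269 and 25425 in AAV muscles and 40944, 47899, 39627 and 40755 in saline muscles at 7 dpi. The groups were separate on both days, and the AAV muscles of both days overlapped; the shift of -0.93 ± 0.32 (limma adjusted p = 0.0435) was not called without AAV 21 dpi replicate 1 (-0.77, adjusted p = 0.131), nor without any 1 of AAV 21 dpi replicates 2 and 3, AAV 7 dpi replicates 1, 3 and 5, saline 21 dpi replicates 3 and 4 or saline 7 dpi replicates 1, 3 and 4 (adjusted p of 0.0562 to 0.0944). Ttn itself had 5704, 7534, 7406 and 10560 in AAV muscles and 12970, 13940, 13925 and 14934 in saline muscles at 21 dpi, and 9485, 9093, 9341, 8388 and 9104 in AAV muscles and 14485, 12119, 13190 and 14157 in saline muscles at 7 dpi. Its shift was -0.30 (limma adjusted p = 0.265), -0.46 without AAV 21 dpi replicate 4 (adjusted p = 0.0301) and 0.22 after quantile normalization.

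Of 33 genes of titin, its ligands and stretch sensors, 2 shifted down (median -0.26), or 10 without AAV 21 dpi replicate 4, 0 without AAV 21 dpi replicate 1 and 1 without AAV 7 dpi replicate 3, saline 21 dpi replicate 3 or saline 7 dpi replicate 3. The stretch-responsive ankyrin repeat gene Ankrd1 was strongly raised on both days, with responses of 4.10 and 3.84 and a shift of 0.25 that was not called (adjusted p = 0.881). Of 20 calcium handling and excitation genes 4 shifted down (median -0.26), but 0 without AAV 21 dpi replicate 1 and 9 without replicate 4; 2 were called without any 1 of AAV 21 dpi replicate 3, AAV 7 dpi replicate 5, saline 21 dpi replicate 3 or saline 7 dpi replicates 2 and 4. Trdn (triadin) and Jph1 (junctophilin 1), proteins of the triad, shifted by -0.54 and -0.59, and by -0.36 and -0.40 without AAV 21 dpi replicate 1 (adjusted p = 0.065 and 0.0854). Tln2, a costameric talin, shifted by -0.58.

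Slow fibre genes had a positive median shift and fast fibre genes a negative one (-0.35). The fast fibre median was near 0 after quantile normalization (-0.06) and without AAV 21 dpi replicate 1 (-0.07). Of 12 tested, 5 were higher and 3 lower at 21 dpi and 0 higher and 2 lower at 7 dpi (median responses 0.61 and -0.15). The shift was positive in 9 of the 12 (median 0.89), with 1 called up and 1 called down. It came from both sides: the median change between days was 0.54 in AAV muscles and -0.48 in saline muscles. Between AAV muscles of the 2 days 0 of the 12 were called higher and 1 lower. Leaving out single libraries gave 0 to 5 upward calls, 0 without AAV 21 dpi replicate 1 and 5 without replicate 4. Tpm3, a tropomyosin of this list, had 145, 75.4, 84.4 and 57.1 normalised counts in AAV muscles and 38.4, 48.1, 41.5 and 48.3 in saline muscles at 21 dpi. At 7 dpi it had 51.5, 51.7, 61.2, 59.5 and 59.2 in AAV muscles and 45.6, 86.1, 69 and 91.6 in saline muscles. The groups were separate at 21 dpi and overlapped at 7 dpi, and the shift was 1.26 ± 0.37 (limma adjusted p = 0.0166), or 1.01 without AAV 21 dpi replicate 1 (adjusted p = 0.0776). Mybpc1, slow myosin-binding protein C, was the downward call (-0.63). It was not called after quantile normalization (-0.35, limma adjusted p = 0.0746).

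Embryonic and perinatal contractile genes were raised on both days (10 of 12 at 21 dpi and 7 at 7 dpi, median responses 2.71 and 1.54). Of the 12, 1 shifted up, Mybph (1.14, limma adjusted p = 0.0427), which is near the share of 7.54% over all genes tested. The list median was 0.97. The call of Mybph was lost without AAV 21 dpi replicate 2, 3 or 4, AAV 7 dpi replicate 1, 3, 4 or 5, saline 21 dpi replicate 2, 3 or 4, or saline 7 dpi replicate 1 or 3 (adjusted p of 0.0553 to 0.137). For the list, leaving out single libraries gave 0 to 5 upward calls, the highest without AAV 21 dpi replicate 4. Myh3, embryonic myosin heavy chain, had 758, 645, 718 and 158 normalised counts in AAV muscles at 21 dpi, against 7.89, 7, 15.9 and 7.48 in saline muscles. At 7 dpi it had 87.4, 170, 58.4, 308 and 56.4 in AAV muscles, against 9.96, 7.91, 14.3 and 6.99 in saline muscles. The AAV muscles of both days overlapped through replicate 4 of 21 dpi, and the shift of 2.20 ± 0.81 was not called (limma adjusted p = 0.0584) but was called without that library (2.74, adjusted p = 0.00916). Myh8, perinatal myosin heavy chain, had 419, 97.9, 117 and 18.8 in AAV muscles and 4.01 to 8.23 in saline muscles at 21 dpi, and 183, 229, 98, 182 and 113 in AAV muscles and 2.36 to 11.1 in saline muscles at 7 dpi, with a shift of -0.54 (adjusted p = 0.677). Reads of neighbouring myosin genes may be divided among them. Myod1, a myogenic transcription factor, had 58.7, 37.6, 42.9 and 44.5 in AAV muscles and 8.91, 17.8, 20.1 and 19.8 in saline muscles at 21 dpi, and 15.1 to 25.2 in AAV muscles and 10.5 to 28.9 in saline muscles at 7 dpi (shift 1.40 ± 0.35, adjusted p = 0.00538). Vcam1, an adhesion molecule of satellite cells and endothelium, shifted by 1.57.

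Genes that fold proteins formed a smaller group. Of 19 genes of folding in the endoplasmic reticulum 13 were higher at 21 dpi and 6 at 7 dpi, and 7 shifted up (median 0.45), or 4 without AAV 21 dpi replicate 1 and 12 without replicate 4. Hspa5, the chaperone BiP, had 265, 205, 211 and 173 normalised counts in AAV muscles and 181, 157, 182 and 193 in saline muscles at 21 dpi, and 131, 130, 123, 123 and 129 in AAV muscles and 183, 161, 162 and 160 in saline muscles at 7 dpi. It was lower at 7 dpi in every AAV muscle, and the groups overlapped at 21 dpi (shift 0.63 ± 0.16, limma adjusted p = 0.00739). Calr (calreticulin) shifted by 0.45 and Sdf2l1 by 1.05. Of 21 heat shock genes 4 shifted up (7 after quantile normalization), among them Hsp90aa1 (1.22 ± 0.24, adjusted p = 3.74e-04) and Hspa4l (0.81). Nop56, a ribosome biogenesis factor, shifted by 0.64, and Lamp1, a lysosomal membrane protein, by -0.46 ± 0.07 (adjusted p = 1.36e-05).

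Other named genes had no called shift over all libraries. The responses of Sln, a regulator of the calcium pump, were 4.72 at 21 dpi and 4.34 at 7 dpi (shift 0.38, limma adjusted p = 0.742), and those of Nos1, neuronal nitric oxide synthase, were -2.52 and -2.04 (shift -0.48, adjusted p = 0.293, but -0.76 and called without AAV 21 dpi replicate 4, adjusted p = 0.0351). Cdkn1a, a cell cycle inhibitor, had responses of 1.90 and 1.45 (shift 0.46, adjusted p = 0.478). The ubiquitin ligases Trim63 and Fbxo32, markers of atrophy, had shifts of -0.45 and -0.73 (adjusted p = 0.191 and 0.199), and Ppargc1a, a coactivator of mitochondrial genes, -0.34 (adjusted p = 0.406). Of 16 immediate early genes, 9 Schwann cell genes and 8 tendon genes tested, 0 were called. Of 16 endothelial genes 14 were lower at 21 dpi and 11 at 7 dpi, and 1 shifted down (median -0.44), with 0 to 7 when single libraries were left out and 7 without AAV 21 dpi replicate 4. In lists of this size counts of 0 or 1 are near the share over all genes tested (7.54% up and 6.27% down).

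The shift varied between libraries of the later day. For the T and NK cell list, the median response of single AAV libraries at 21 dpi was 3.90, 3.12, 3.44 and 2.26 in replicates 1 to 4, against 0.36 to 1.08 over the 5 libraries of 7 dpi. For macrophages it was 4.92, 3.20, 3.76 and 2.02, against 1.57 to 2.15, and for oxidative phosphorylation -1.19, -1.12, -1.16 and -0.52, against -0.74 to -0.51. Replicate 4 of 21 dpi thus lay above the 7 dpi libraries in the T cell, interferon gamma and MHC class I lists and among them in the macrophage and oxidative phosphorylation lists. For fast fibre genes its median response was -0.22, nearer to 0 than in any 7 dpi library. Its transgene level of 866 was not the lowest of its group, which was the 127 of replicate 1.

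**Figure D4:**
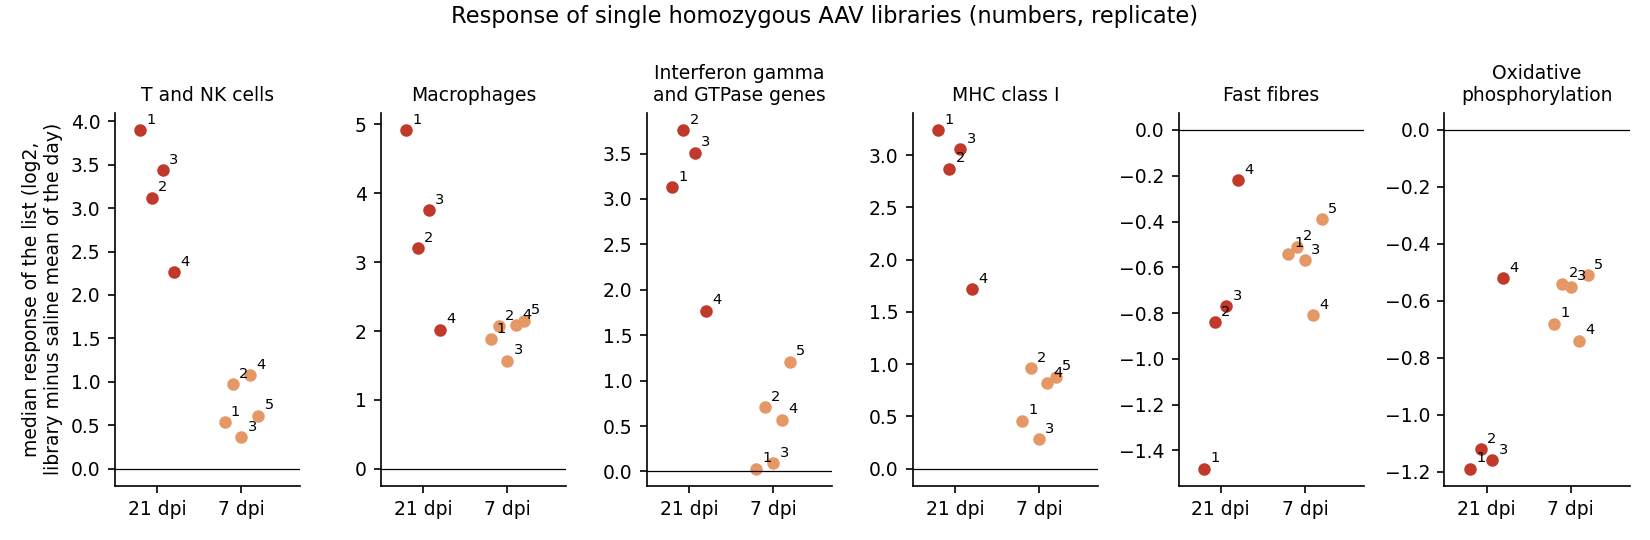
Median response (log2, AAV library minus the saline mean of its day) of 6 gene lists in single homozygous AAV libraries, with 21 dpi in red left of 7 dpi in orange; numbers are replicates and each panel has its own scale. In all 6 panels replicate 4 of 21 dpi was nearer to 0 than replicates 1 to 3, above the 7 dpi libraries for T and NK cells (2.26 against at most 1.08) and among them for macrophages (2.02).

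Wild-type muscle, given the same virus, had a shift of its own, with 1372 genes higher (10.5%) and 1123 lower (8.63%). Its response at 7 dpi had 0 called genes by limma and by edgeR and 4 higher and 3 lower by DESeq2 (210, 249 and 257 genes at an unadjusted p under 0.05). Its response at 21 dpi had 2559 genes higher (19.7%) and 2770 lower (21.3%). The 551 genes shifted up in both genotypes made up 56.1% of the homozygous and 40.2% of the wild-type list, and the 199 shifted down in both made up 24.4% and 17.7%. The immune lists shifted up in wild-type muscle too: 14 of 15 T and NK cell genes (median 2.15), 20 of 26 interferon gamma genes (2.18), 18 of 20 MHC class I genes (2.07), 21 of 25 type I interferon genes (1.51) and 18 of 20 macrophage genes (2.70). Igkc shifted by 6.58 in wild-type muscle and Cxcl9 by 4.09, and neither differed between genotypes by the test of the difference (limma adjusted p = 0.478 and 0.993). Of nuclear oxidative phosphorylation genes 4 of 29 shifted down in wild-type muscle (median -0.22). Between genotypes 0 of the 29 differed, where 0.192% of all genes tested were higher and 0.891% lower. The transgene stood at 1267, 999, 111 and 648 normalised counts in wild-type AAV muscles at 21 dpi and at 249, 158, 227 and 324 at 7 dpi.

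The shift itself differed between homozygous and wild-type muscle for 141 genes, 25 higher (0.192%) and 116 lower (0.891%) in homozygous muscle. Of the 982 upward shifts 14 were among them and of the 816 downward shifts 69. Leaving out single libraries gave 66 to 368 such genes, and a fit of only the groups compared gave 70. Postn differed by -5.27 (limma adjusted p = 1.09e-04): in wild-type AAV muscles it had 109, 27.7, 130 and 65 normalised counts at 21 dpi and 17.4, 9.94, 11.1 and 12.5 at 7 dpi, so that it shifted up by 3.02 there. Matrix genes with a similar difference were Mmp13 (-4.76), Fn1 (-2.51) and Col1a1 (-2.73, adjusted p = 0.0313). The call of Col1a1 was lost without any 1 of homozygous AAV 7 dpi replicate 2, homozygous saline 7 dpi replicate 2, wild-type AAV 21 dpi replicates 3 and 4, wild-type AAV 7 dpi replicate 4, wild-type saline 21 dpi replicate 1 or wild-type saline 7 dpi replicates 1 and 3 (adjusted p of 0.0509 to 0.0726). Of 18 collagen genes 4 differed between genotypes, all lower in homozygous muscle, and of 31 matricellular genes 4.

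Of 15 fast fibre, 12 slow fibre, 33 titin and 20 calcium handling genes 0 differed between genotypes, and of 12 embryonic and perinatal contractile genes 2 did. Over all genes tested 0.192% were higher and 0.891% lower. At that share a count of 0 in lists of this size does not show alike shifts. Myh8 differed by -5.86 (limma adjusted p = 0.00273), with 114, 29.5, 394 and 289 normalised counts in wild-type AAV muscles at 21 dpi and 2.22 to 3.92 at 7 dpi. Tuba4a, an alpha tubulin, differed by -1.49, Des, the intermediate filament desmin, by -1.05 and, in the other direction, Akap2, a kinase anchor, by 1.08; these 3 calls held in all 44 alternatives. Enpp2, which makes lysophosphatidic acid, differed by 1.06, a call lost without any 1 of homozygous saline 7 dpi replicate 2, wild-type AAV 21 dpi replicate 3, wild-type AAV 7 dpi replicate 1, wild-type saline 21 dpi replicate 4 or wild-type saline 7 dpi replicate 1 (adjusted p of 0.0514 to 0.0625). Other called differences depended on more of the libraries: of the 32 single libraries left out, 23 ended the call of Inpp1 (1.17), 19 that of Sod1 (-0.59), 18 that of Arhgap27 (1.45), 13 that of Cltb (-0.78) and 7 that of Mturn (1.12), with adjusted p up to 0.0992. The difference of Nmrk2 was 2.25 and was not called (adjusted p = 0.0554), with a wild-type shift of 1.05.

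Dsp, which encodes the desmosomal protein desmoplakin (chr13:38151294-38198577, plus strand), differed most in the upward direction, by 2.50 (limma adjusted p = 0.0222). This difference was not called at a pseudocount of 0.25 (adjusted p = 0.0681), with only the groups compared (0.104), with limma voom (0.863) or with edgeR on reads (0.916). In homozygous AAV muscles it had 31, 425, 525 and 284 reads at 21 dpi, against 6, 0, 1 and 0 in saline muscles, and 10, 4, 0, 26 and 10 reads at 7 dpi, against 2, 0, 1 and 3 in saline muscles. In wild-type AAV muscles it had 1, 1, 2 and 1 reads at 21 dpi and 0, 0, 0 and 3 at 7 dpi. The AAV muscles of 21 dpi were above all other libraries, replicate 1 by little. Its homozygous shift was 2.61 ± 0.40 by limma (adjusted p = 1.31e-05), with an adjusted p of 0.0737 by edgeR and 0.127 by DESeq2 on reads.

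**Figure D5:**
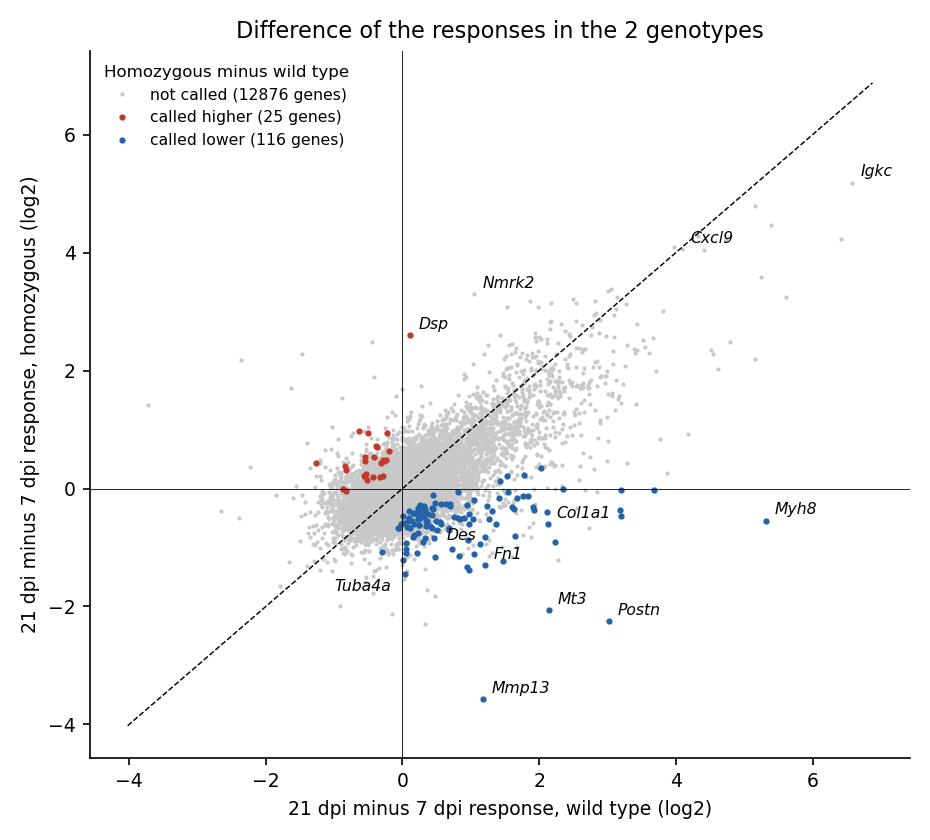
Each point is 1 of the 13017 genes tested, with its shift (response at 21 dpi minus response at 7 dpi, log2) in homozygous muscle on the vertical axis and in wild-type muscle on the horizontal axis. Coloured points are the 25 genes whose shift was higher and the 116 whose shift was lower in homozygous muscle; Dsp lies above the diagonal, with 2.61 against 0.11, and Postn below it, with -2.25 against 3.02.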

How the data were processed

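Whole tibialis anterior muscles were lysed with beads and TRI reagent, and libraries were made with the NEBNext Ultra II Directional kit, per the labels' protocols. Per the submitters' processing notes, the tools were limma, RSEM, Bowtie and FastQC and the build GRCm38/mm10, with no versions given. The authors deposited a table of normalised counts, a signal in which each value was found to equal (reads + 0.5) over the library's effective size, on a per-million scale. Whole reads were recovered from it, with 0 of 832776 values farther than 0.02 reads from a whole number. Bowtie and RSEM divide reads that match several places, which makes near-identical genes uncertain, and the sources used here do not give the strand setting of the quantification. The table holds 14871 genes, of which 14861 were found in GENCODE M21, the source of the coordinates, and 0 columns lacked a sample.

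The 13017 genes whose mean over all 56 libraries reached 1 CPM were tested on log2(value + 1) with limma 3.58.1 (intensity trend, 1 mean for each of 14 groups, all libraries sharing the spread) in R 4.3.3, with Benjamini-Hochberg adjusted p under 0.05 over all genes tested as the call; fold changes on this scale understate changes of low genes. The contrast was (AAV minus saline at 21 dpi) minus (AAV minus saline at 7 dpi). edgeR 4.0.16, DESeq2 1.42.0 and limma voom on recovered reads were alternatives, beside pseudocounts of 0.25 and 4, no minimum level, a mean of at least 5 CPM, median-of-ratios and quantile scaling, no intensity trend, only the groups compared, a replicate block and leaving out each library. The fit was run on simulated reads. It called 38 of 50 genes with a simulated shift of 1 and 40 of 50 with -1, and 14 of 12817 unchanged genes. The simulation gave every group the same spread for a gene, so it could not test groups of unequal spread. Tables and plots were made with Python 3.11.15, pandas 2.3.3, scipy 1.17.1 and matplotlib 3.10.9. Libraries were grouped by title. The recovered depth of 6.9 M to 27.18 M reads per library (median 21.69 M) sets the precision, and a gene with few reads in the saline muscles has no firm fold.

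The gene lists (49, and 2 added for the closing observations) and the named genes were chosen with earlier results of these data known. Named were the 15 largest called shifts in each direction among genes with at least 5 CPM in a homozygous group and no overlap of single-library responses between days, 6 genes in each direction with a change of sign and 6 with a response called at 7 dpi only, up to 4 members of a list, 6 in each direction for the genotype difference and 22 genes always named; predicted genes were passed over and some named genes are left out of the text. Sequences are RefSeq promoters (GRCm38.p6).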

Additional observations from a re-analysis of the deposited data

Results flagged for a closer look

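Single libraries stood apart from the rest of their group in 49 of 538 sets of values examined (9.11%), where the gap to the nearest other library took an unusually large share of the range of the group. Chance alone flags about 1 in 20 sets. Saline 7 dpi replicate 4 was high in Iigp1 (83 normalised counts), Gbp2 (57), Gbp4 (121), Cd274 (48.5), Xdh (73.4), Parp14 (29.4) and Il2rb (0.534) and low in Ighg2c (0.127). AAV 21 dpi replicate 4 was low in Cxcl9 (60.3), Gbp2 (50.9), Gbp4 (28.1), Parp14 (29.6), Myh3 (158) and mt-Atp6 (5622) and high in Ndufv2 (188) and Clip4 (93.3). AAV 21 dpi replicate 1 was low in Cltb (43.6), Akap2 (45.5), Des (3172) and Psmb5 (68.8).

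At 7 dpi, AAV replicate 5 was high in Gbp2 (40.7) and Gbp4 (63.8), and AAV replicate 1 was high in Ighg2b (1.03) and low in Gstp2 (62.7) and Irf9 (11.2). AAV replicate 3 was low in H2-Ab1 (44.6) and H2-K1 (59.4), and AAV replicate 2 was high in Mybph (931) and had the lowest depth (6.9 M reads). Saline replicate 1 of that day was high in Postn (21.4), Des (3350) and Hspa5 (183) and low in Clip4 (150) and Nop56 (24.3), and saline replicate 2 was low in Mpeg1 (4.87).

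At 21 dpi, saline replicate 1 was low in Cxcl10 (0.254), Mmp13 (0.198), Myod1 (8.91) and depth (19.8 M reads) and high in Dsp (0.368), Zbp1 (0.311) and Ccr7 (0.311). Saline replicate 2 was high in Ighg2b (0.104), Cd8a (0.436) and Fzd9 (21.8) and low in H2-K1 (26) and Arhgap27 (3.76). Saline replicate 3 was high in Myh3 (15.9), and saline replicate 4 was high in Cd3g (0.109).

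The shift differed between homozygous and wild-type muscle, by limma's test of the difference, for 20 of the genes examined. The difference (homozygous minus wild-type shift, log2) was negative for Myh8 (-5.86), Postn (-5.27), Mmp13 (-4.76), Mt3 (-4.21), Col1a1 (-2.73), Fn1 (-2.51), Rian (-2.08), Meg3 (-1.98), Tuba4a (-1.49), Des (-1.05), Psmb5 (-0.90), Cltb (-0.78), Psmb7 (-0.61) and Sod1 (-0.59). It was positive for Dsp (2.50), Arhgap27 (1.45), Inpp1 (1.17), Mturn (1.12), Akap2 (1.08) and Enpp2 (1.06). Of these 20 calls, 7 held in all alternatives run. The transgene level of wild-type and homozygous muscles also differed at 7 dpi, and its part in these differences was not tested.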

How the results depend on the processing

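The 1798 called shifts in homozygous muscle became 615 in a fit of only the groups compared and ranged from 1061 to 3245 when single libraries were left out. The split of 982 higher and 816 lower (54.6% higher) was 548 and 710 with limma voom (43.6%), 608 and 766 at a mean of at least 5 CPM (44.3%) and 869 and 1036 after quantile normalization (45.6%). The wild-type shift went to 1534 with limma voom and to 1497 to 3505 without single libraries. The genotype difference had 70 genes with only the groups compared, 256 with DESeq2, 72 with the replicate block and 66 to 368 without single libraries. The saline change had 0 calls at pseudocount 0.25, at a mean of at least 5 CPM, without the intensity trend, with voom and with edgeR, 2 with DESeq2, and 0 to 1 without single libraries. The change between AAV muscles had 996 calls with only the groups compared, and 2712 to 4935 without single libraries. Shifts that changed sign were those of Ttn (0.22 after quantile normalization), Cd8a (-0.29 with edgeR) and Myh8 (0.31 with edgeR, 0.26 with DESeq2, and -1.24 to 0.23 without single libraries), and, without single libraries, Ankrd1 (-0.18 to 0.72) and Csrp3 (-0.26 to 0.68). The causes of these changes were not tested. Of 132 genes examined, 115 were called, 53 of them in all alternatives, 57 were lost in 1 to 3 and 5 in 4 or more. Same-numbered homozygous libraries deviated together at 21 dpi (correlations of 0.165 to 0.233, each AAV library closest to its own number) but not at 7 dpi (-0.131 to -0.002), and in wild-type muscle the correlations were 0.04 to 0.077 at 21 dpi, where AAV replicate 3 was closer to saline replicate 4 (0.103), and -0.133 to 0.311 at 7 dpi, so the numbers were not taken to pair samples. The replicate block gave 1524 shifts (874 higher, 650 lower); under it Adgre1, Grap, Mybph, Myh4 and Rian were not called (adjusted p of 0.0521 to 0.0749) and Gbp4 was (2.41, adjusted p = 0.0095), and the genotype differences of Cltb, Col1a1, Dsp, Inpp1, Mturn and Sod1 were not called (adjusted p of 0.051 to 0.105). Depth limits genes with few reads in saline muscles, whose fold depends on the pseudocount.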

Other observations

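A group of genes outside the lists above moved the other way from the immunoproteasome. Constitutive proteasome subunits, which build the standard proteasome, were higher at 7 dpi in 32 of 33 genes (median response 0.42), while 10 were higher and 3 lower at 21 dpi (median 0.10), and 18 of the 33 shifted down (median -0.33). Leaving out single libraries gave 12 to 21 downward calls, quantile normalization 11 and a fit of only the homozygous groups 9. Psmb5, the chymotrypsin-like subunit, had 68.8, 82.1, 83.3 and 81.6 normalised counts in AAV muscles and 75.5, 68.3, 74.3 and 69.4 in saline muscles at 21 dpi, and 100, 125, 118, 119 and 116 in AAV muscles and 75.1, 72.4, 70.1 and 69.9 in saline muscles at 7 dpi. The groups overlapped at 21 dpi and were separate at 7 dpi (shift -0.55 ± 0.12, limma adjusted p = 0.00207). Psmb7, the trypsin-like subunit, shifted by -0.67 ± 0.10 (adjusted p = 3.0e-06). In wild-type muscle 4 of the 33 shifted up and 0 down, and 13 differed between genotypes, all lower in homozygous muscle.

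Imprinted growth genes, which are expressed from 1 parental copy, were higher at 7 dpi in 14 of 18 tested (median response 0.88) and at 21 dpi in 9 (median 0.28). Only Meg3 and Rian, long noncoding RNAs of the same imprinted cluster, shifted down, by -1.15 and -0.95 (limma adjusted p = 0.0129 and 0.0395). Meg3 had 49.9, 35.3, 35.6 and 26.3 normalised counts in AAV muscles and 44, 42.2, 31 and 24.6 in saline muscles at 21 dpi, and 120, 141, 36.5, 111 and 86.7 in AAV muscles and 45.1, 34.7, 36.3 and 39.6 in saline muscles at 7 dpi, where AAV replicate 3 lay among the saline muscles. The call of Rian was lost without AAV 21 dpi replicate 2 or 3, without any 1 of AAV 7 dpi replicates 1, 2, 4 and 5, without saline 21 dpi replicate 1 or 2, and without saline 7 dpi replicate 2, 3 or 4 (adjusted p of 0.0519 to 0.104). A fit of only the homozygous groups called neither gene. Both lists were written after their genes' values had been seen, so their counts describe them and were not tested.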
